A study of Mus musculus with 6 samples.

Results

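The BCL2 family holds the proteins that decide, at the outer mitochondrial membrane, whether a cell lives or dies. For 10 of its genes the values were taken by symbol from the deposited table of 27179 mouse genes. Bcl2, Bcl2l1, Mcl1 and Bcl2a1b are the 4 antiapoptotic members, Bax and Bak1 the 2 effectors, and Bid, Bcl2l11, Bbc3 and Pmaip1 the 4 BH3-only members. The rule takes them by name and uses no measured value. By Entrez number they are Bcl2 12043, Bcl2l1 12048, Mcl1 17210, Bcl2a1b 12045, Bax 12028, Bak1 12018, Bid 12122, Bcl2l11 12125, Bbc3 170770 and Pmaip1 58801. All 10 were listed, and 9 of the 10 reached the mean level needed for a test.

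RNA-Seq was run on leukemia-initiating cells (LICs) of a mouse acute myeloid leukemia, with 3 libraries labelled Asic3-null (Asic3-/-), titled K1, K3 and K5 (replicates 1, 2 and 3), and 3 labelled WT (Asic3+/+), titled W6, W7 and W9 (replicates 1, 2 and 3). In this model, Lin- fetal liver cells of either genotype were infected with a retrovirus that carries MLL-AF9 and YFP, and were transplanted into lethally irradiated mice, so both groups carry the same oncogene and reporter. YFP+Mac-1+c-Kit+ cells of the bone marrow were sorted as LICs, a gate that enriches such cells without isolating one cell type. The strain is given as C57BL/6 and the age as 8 weeks for all 6 libraries. ASIC3 is an acid-sensing ion channel, and the comparison asks what its loss changes in LICs. The labels do not say whether the 3 libraries of a group came from separate mice, so that p values measure the spread between these libraries.

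Antiapoptotic members (BCL2, BCL-XL from Bcl2l1, MCL1 and A1 from the Bcl2a1 genes) hold the effectors BAX and BAK in check. BH3-only proteins (BID, BIM from Bcl2l11, PUMA from Bbc3 and NOXA from Pmaip1) are made or activated upon stress, bind the antiapoptotic proteins through their BH3 helix and free or activate the effectors, which then open the outer membrane and release cytochrome c. In myeloid leukemia, MCL1 and BCL2 are the best known survival factors, and BCL2 is the target of venetoclax. Much of this control acts on the proteins through binding, cleavage, phosphorylation and turnover, which mRNA does not show.

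The BH3 core is the stretch on which these interactions turn, and it is shown here for the genes in which it was found once. It was searched in frame, on the coding strand of the longest complete coding sequence of each gene (GENCODE M21, GRCm38), as a leucine codon, 3 codons of any kind, a codon for glycine or alanine and a codon for aspartate. Each sequence has 42 bases, read 5′ to 3′ on the coding strand, with the 6 core codons in capitals.
Bcl2, chr1:106712572-106712613, minus strand: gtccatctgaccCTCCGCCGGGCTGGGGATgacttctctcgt
Bcl2l1, chr2:152829694-152829735, minus strand: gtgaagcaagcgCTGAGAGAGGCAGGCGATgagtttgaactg
Mcl1, chr3:95659424-95659465, plus strand: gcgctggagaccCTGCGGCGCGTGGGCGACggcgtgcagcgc
Bax, chr7:45465994-45466035, minus strand: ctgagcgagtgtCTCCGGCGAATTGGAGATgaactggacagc
Bak1, chr17:27022528-27022569, minus strand: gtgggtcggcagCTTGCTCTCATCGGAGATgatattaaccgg
Bid, chr6:120897286-120897327, minus strand: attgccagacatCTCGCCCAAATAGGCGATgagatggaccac
Bcl2l11, chr2:128147138-128147179, plus strand: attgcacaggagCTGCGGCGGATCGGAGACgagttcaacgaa
Bbc3, chr7:16313761-16313802, plus strand: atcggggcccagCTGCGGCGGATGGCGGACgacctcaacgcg
Bmf, chr2:118545097-118545138, minus strand: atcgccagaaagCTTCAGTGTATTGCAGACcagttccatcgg
The codon before aspartate is one for glycine in 7 of these 9 genes and one for alanine in Bbc3 and Bmf, which both encode BH3-only proteins. Bmf is not among the 10 members and is shown because it was the family gene that passed the test below. Pmaip1 held the pattern 2 times in 309 coding bases, and it was not found in Bcl2a1b (516 bases) nor in 2 other family genes searched, Bad (612 bases) and Bcl2l2 (579 bases). Of 8816 mouse genes with a coding sequence no longer than 993 bases, that of Mcl1, 10.9% held the pattern, so a match alone does not mark a family member.

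Values are RPKM, in which reads are divided by the length of the gene and the size of the library. Comparisons of level between genes rest on the gene lengths used in that division, which were not tested. The RPKM values gave back whole reads for every gene, from libraries of 1947168 to 2381861 reads, and the recovered reads are given where they are few. The comparison was made on log2(RPKM + 1) with limma over the 12037 genes with a mean of at least 1 RPKM, and a gene was called at an adjusted p under 0.05. A log2 fold change is the mean of the libraries labelled Asic3-null minus that of those labelled WT on this scale, which understates the change of low genes. For 3 libraries against 3, the smallest two-sided p of the exact permutation test of a single gene is 0.10.

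The libraries differ in more than the label, which bears on all that follows. Asic3 itself ran against the labels. It had 9.12, 4.11 and 6.58 RPKM in K1, K3 and K5 and 1.22, 1.85 and 0.435 RPKM in W6, W7 and W9. Asic3 was called higher under the Asic3-null label (log2 fold change 1.81, adjusted p = 0.026 from limma). Directions are therefore given by label throughout. Xist was higher by 5.81 on the log2 scale in the libraries labelled Asic3-null, and 4 Y-linked genes were lower, so genotype and the sex of the cells cannot be told apart. Of 17 tested neutrophil granule genes 14 were called lower. Ctsg alone of the 17 had an estimate above 0, at 0.43 (unadjusted p = 0.041 from limma), and was not called. The summed level of the list was 3941 to 5254 RPKM against 9388 to 10947 RPKM in the libraries labelled WT. Of 7 tested monocyte genes 3 were called lower (1170 to 1322 against 1579 to 1728 RPKM). Of 4 genes that mark such LICs, Itgam, which encodes part of Mac-1, was called lower at 14.0 ± 2.5 against 76.8 ± 18.8 RPKM (SD, n = 3 each), and Meis1 was called higher with a log2 fold change of 0.91, a call that held in 6 of 14 alternatives. Kit, at 17.6 ± 3.0 against 11.1 ± 3.6 RPKM with a log2 fold change of 0.64, and Hoxa9, with −0.58, were not called. All 4 genes had an unadjusted p under 0.05 from limma, and the groups overlapped for Kit alone. Of 8 T cell genes 3 (Cd3e, Cd4 and Cd8a) had no read in any library, and the list summed to 1.64 to 4.06 RPKM under the Asic3-null label and 0.526 to 4.89 RPKM under the WT label. Of 6 B cell genes 2 had no read, and the list summed to 37.3 to 47.6 and 42.0 to 50 RPKM, most of it from Cd79b. The 7 erythroid genes in the table summed to 0.972 to 2.41 and 3.07 to 10.8 RPKM. Only 1 gene of each of these 3 lists was tested and none was called, the erythroid one, Hba-a1, having an estimate of −1.30 on the log2 scale with an unadjusted p under 0.05. In bulk RNA, fewer cells of a type and less RNA per cell cannot be told apart.

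Over all tested genes, 3.35% were called, 0.523% in the upward and 2.82% in the downward direction under the Asic3-null label, and by limma none of the 9 tested members was among them. Bax alone had an unadjusted p under 0.05, as did 15.9% of all tested genes. The groups did not overlap for Bcl2, Bcl2l1 and Bax, 3 of the 9, against 22.6% of all tested genes. Bcl2 was the member with all libraries labelled Asic3-null on the upper side (background 11.2%), and Bcl2l1 and Bax lay on the lower side (background 11.4%). The estimates were above 0 for Bcl2, Bbc3 and Pmaip1 and below 0 for the other 6, with a median log2 fold change of −0.06 against 0.03 over all tested genes. The sign of Mcl1, Bak1, Bbc3 and Pmaip1 turned when 1 library was left out. Under 14 alternatives of processing, limma-voom on the recovered reads among them, no member was called, and the lowest adjusted p from limma of any member was 0.181.

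**Figure D1:**
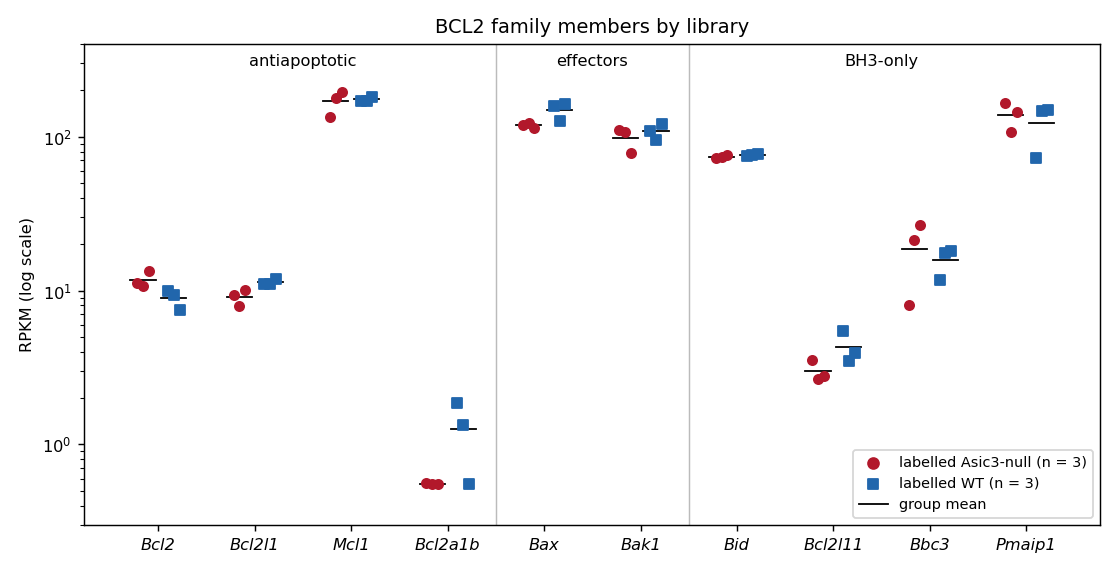
Level of each of the 10 members in RPKM (log scale) in the 3 libraries labelled Asic3-null (circles) and the 3 labelled WT (squares), with a line at each group mean, ordered by role. Mcl1, Bax, Bak1, Bid and Pmaip1 lie well above Bcl2, Bcl2l1 and Bcl2l11 in every library, and the groups stand apart without overlap for Bcl2, Bcl2l1 and Bax.

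The members covered a wide range of levels, from Mcl1, among the most abundant genes of these cells, down to Bcl2a1b at a few reads. By mean RPKM over the 6 libraries, Mcl1 was first at 172, followed by Bax at 134, Pmaip1 at 131, Bak1 at 103, Bid at 75.1, Bbc3 at 17.2, Bcl2 at 10.4, Bcl2l1 at 10.2, Bcl2l11 at 3.64 and Bcl2a1b at 0.906. Mcl1 was above Bax, Bak1 above Bid, Bid above Bbc3, Bcl2l1 above Bcl2l11 and Bcl2l11 above Bcl2a1b in 6 of 6 libraries. Bax and Pmaip1 were not separated, with Bax higher in 3 of 6, nor were Pmaip1 and Bak1, with Pmaip1 higher in 4 of 6. Bbc3 was above Bcl2 in 5 of 6. Bcl2 and Bcl2l1 changed places with the label, Bcl2 being the higher one in the 3 libraries labelled Asic3-null and the lower one in the 3 labelled WT. Among the 12037 tested genes, Mcl1 stood at the 96.3 percentile of mean level, Bax at the 94.8, Pmaip1 at the 94.7, Bak1 at the 92.7 and Bid at the 89.2 percentile. Bbc3 stood at the 55.4, Bcl2 at the 40.7, Bcl2l1 at the 40.3 and Bcl2l11 at the 17.9 percentile.

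Of the antiapoptotic members, Mcl1, whose short-lived protein guards myeloid cells and their progenitors, was by far the most abundant. It had 135, 178 and 196 RPKM in K1, K3 and K5 and 171, 170.4 and 181 RPKM in W6, W7 and W9. K1 was the lowest of all, K3 lay inside the range of the W libraries and K5 above it, so the groups overlapped. The log2 fold change was −0.06 (95% interval −0.40 to 0.28, adjusted p = 0.893 from limma), and it was 0.10 without K1.

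Bcl2, the founding member and guardian of the outer membrane, had 11.3, 10.7 and 13.4 RPKM in K1, K3 and K5, from 202, 198 and 243 reads, and 10, 9.34 and 7.52 RPKM in W6, W7 and W9, from 163, 141 and 138 reads. Each library labelled Asic3-null was above each labelled WT, with 10.7 against 10 RPKM at the closest. This is a log2 fold change of 0.36 (standard error 0.18, 95% interval −0.05 to 0.77), with an adjusted p of 0.371 from limma (unadjusted p = 0.0768), and the exact permutation test gave the two-sided p of 0.10. The estimate lay between 0.25 and 0.44 under the alternatives.

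Bcl2l1, which encodes BCL-XL and, by splicing, the shorter proapoptotic BCL-XS, had 9.29, 7.97 and 10.1 RPKM in K1, K3 and K5 and 11.0, 11.0 and 11.9 RPKM in W6, W7 and W9. Each library labelled Asic3-null was below each labelled WT. These values rest on 45 to 56 reads and 51 to 67 reads per library, and values per gene do not separate the isoforms. The estimate was −0.29 on the log2 scale (standard error 0.17, 95% interval −0.67 to 0.09, adjusted p = 0.430 from limma), between −0.36 and −0.21 under the alternatives. Cox4i2, a gene at 0.403 RPKM, shares 6308 bases of the span of Bcl2l1, and reads were not told apart by strand.

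Bcl2a1b, one of the near-identical mouse genes for A1, could hardly be read at this depth. It had 1 read in each of K1, K3 and K5 and 3, 2 and 1 reads in W6, W7 and W9, which are 0.57, 0.55 and 0.56 RPKM against 1.87, 1.34 and 0.55 RPKM. The ratio per read of depth was 0.455 with an exact 95% interval of 0.0737 to 2.13 that covers counting error only, so no difference was detectable. A read on this gene need not belong to it. The first 60 coding bases of the 3 most alike genes are shown with every base at which they differ in capitals, since that is where a read can be assigned.
Bcl2a1a, chr9:88957051-88957110, plus strand: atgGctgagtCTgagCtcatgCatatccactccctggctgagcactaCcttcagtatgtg
Bcl2a1b, chr9:89199360-89199419, plus strand: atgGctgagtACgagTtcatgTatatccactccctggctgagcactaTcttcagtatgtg
Bcl2a1d, chr9:88731660-88731719, minus strand: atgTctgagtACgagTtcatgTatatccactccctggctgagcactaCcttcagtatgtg
These 60 bases hold 6 of the 12 positions at which the 516 coding bases differ. Bcl2a1b was 97.9% identical to Bcl2a1a and 98.8% to Bcl2a1d, and 52.7% of its coding windows of 50 bases and 30.5% of those of 100 bases occurred unchanged in one of the others. Summed over Bcl2a1a, Bcl2a1b and Bcl2a1d there were 5 reads in K1, K3 and K5 and 12 in W6, W7 and W9, a ratio per read of depth of 0.380 (0.105 to 1.16).

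The effectors were abundant in every library. Bax, whose product moves to mitochondria upon activation, had 119, 123 and 113 RPKM in K1, K3 and K5 and 158, 127 and 162 RPKM in W6, W7 and W9. Each library labelled Asic3-null was below each labelled WT, the closest being 123 against 127 RPKM. On average Bax stood at 118 ± 4.8 against 149 ± 19.3 RPKM (SD, n = 3 each). This gives a log2 fold change of −0.33 (standard error 0.13, 95% interval −0.62 to −0.03), and the adjusted p was 0.268 from limma (unadjusted p = 0.0346), between 0.181 and 0.479 under the alternatives. Bax also had the lowest adjusted p of the 9 tested members. The neutrophil and monocyte marker sums given above were lower in the same libraries, and their part in the value of Bax was not tested.

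Bak1, the effector that resides in the outer membrane, had 109.8, 108 and 78.7 RPKM in K1, K3 and K5 and 109.5, 95.2 and 120.1 RPKM in W6, W7 and W9. The groups overlapped, and K5 was the lowest of the 6. The log2 fold change of −0.14 (95% interval −0.51 to 0.23, adjusted p = 0.719 from limma) was 0.01 without K5. Ggnbp1, at 8.48 RPKM, overlaps 8816 bases of the span of Bak1. The sum of Bax and Bak1 was 229, 230.3 and 192 RPKM in K1, K3 and K5 and 268, 222 and 282 RPKM in W6, W7 and W9, and these overlapped.

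Of the BH3-only members, Bid, which links the death receptors to mitochondria once caspase-8 cleaves it, was the steadiest of the 10 members. It had 72.6, 73.5 and 75.7 RPKM in K1, K3 and K5 and 74.9, 76.3 and 77.3 RPKM in W6, W7 and W9. All 6 values lay within 5 RPKM of one another and the groups overlapped. Its log2 fold change was −0.04 (95% interval −0.30 to 0.21, adjusted p = 0.889 from limma).

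Bcl2l11, for BIM, which binds every antiapoptotic member and is held down by growth factor signals, was the lowest tested member. It had 3.52, 2.67 and 2.79 RPKM in K1, K3 and K5 (41, 32 and 33 reads) and 5.48, 3.47 and 3.94 RPKM in W6, W7 and W9 (58, 34 and 47 reads). The groups overlapped by a single pair of libraries, 3.52 against 3.47 RPKM. The log2 fold change was −0.40 (standard error 0.24, 95% interval −0.93 to 0.14, adjusted p = 0.453 from limma), the lowest estimate of the 9, and it lay between −0.51 and −0.24 under the alternatives.

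The p53 targets Bbc3 and Pmaip1 varied most from library to library. Bbc3, for PUMA, had 8.09, 21.5 and 26.5 RPKM in K1, K3 and K5 and 11.8, 17.4 and 17.96 RPKM in W6, W7 and W9. Both extremes lay in the libraries labelled Asic3-null. The log2 fold change of 0.11 (95% interval −0.75 to 0.97, adjusted p = 0.919 from limma) ran from −0.21 without K5 to 0.59 without K1. Pmaip1, for NOXA, which binds MCL1 and speeds its breakdown, had 164, 107 and 144 RPKM in K1, K3 and K5 and 73.1, 148 and 148 RPKM in W6, W7 and W9. W6 stood alone at the lower end. Without it the log2 fold change of 0.22 (95% interval −0.41 to 0.85, adjusted p = 0.748 from limma) was −0.12. K1 and W6 held the lowest Bbc3 value of their group, while K1 held the highest Pmaip1 value of all and W6 the lowest.

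The members differed in how far libraries of 1 group lay apart, here the SD pooled over both groups, which is set beside the counting error as a description, since separate libraries usually vary by more than counting. On the log2 scale the SD within groups was 0.64 for Bbc3, 0.47 for Pmaip1, 0.22 for Bak1 and 0.20 for Mcl1. Counting alone would give 0.17, 0.054, 0.067 and 0.039 for these 4 genes, so that the spread of Pmaip1 was 8.71 times and that of Mcl1 5.05 times the counting error. Bcl2l1 (0.12 against 0.18) and Bid (0.026 against 0.080) varied less than counting would give. Bcl2l11 (0.23 against 0.18), Bax (0.14 against 0.090) and Bcl2 (0.17 against 0.099) lay somewhat above it, and the median SD within groups over all tested genes was 0.243.

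**Figure D2:**
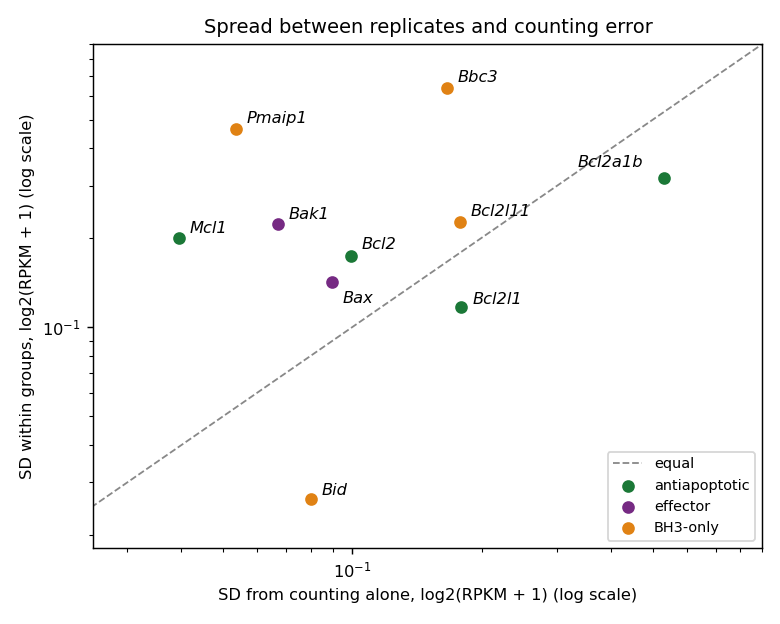
SD within groups on log2(RPKM + 1) against the SD that counting the recovered reads alone would give, both on log scales, 1 point per member coloured by role, with the dashed line where both are equal. Pmaip1, Mcl1, Bbc3 and Bak1 lie far above the line, and Bid, Bcl2l1 and Bcl2a1b below it.

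The balance of the antiapoptotic against the proapoptotic members, read here as a description, overlapped between the labels. The mean log2(RPKM + 1) of the 4 antiapoptotic members minus that of the 6 proapoptotic members was −1.76, −1.80 and −1.66 in K1, K3 and K5 and −1.49, −1.67 and −1.99 in W6, W7 and W9. The 3 libraries labelled Asic3-null lay inside the range of those labelled WT. The group means differed by −0.02 with an SD within groups of 0.19, a difference whose sign turned with single libraries and without Bcl2a1b, and no test was run on a score over chosen genes. The summed level of the antiapoptotic members was 156, 198 and 219.7 RPKM against 194, 192 and 201 RPKM, and that of the proapoptotic members 477, 435 and 440.5 RPKM against 433, 467 and 529.8 RPKM. The ratio of these sums was 0.327, 0.454 and 0.499 in K1, K3 and K5 and 0.449, 0.411 and 0.380 in W6, W7 and W9. Its lowest and highest values both carried the Asic3-null label. Mcl1 made up 86.5% to 90.3% of the antiapoptotic sum in the 6 libraries, so the antiapoptotic sum was for the most part Mcl1.

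Within the antiapoptotic members, Bcl2 and Bcl2l1 stood in a different proportion under the 2 labels. The ratio of Bcl2 to Bcl2l1, chosen after the values were seen, was 1.21, 1.35 and 1.33 in K1, K3 and K5 and 0.907, 0.846 and 0.630 in W6, W7 and W9. The separation follows from the values of both genes given above and is no further evidence. The sum of the pair was 20.5, 18.7 and 23.4 RPKM against 21.04, 20.4 and 19.5 RPKM and overlapped. The level of Bcl2 was 9.48%, 8.74% and 11.8% of that of Bax in K1, K3 and K5 and 6.33%, 7.35% and 4.63% in W6, W7 and W9, again a quantity whose order its parts fix.

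**Figure D3:**
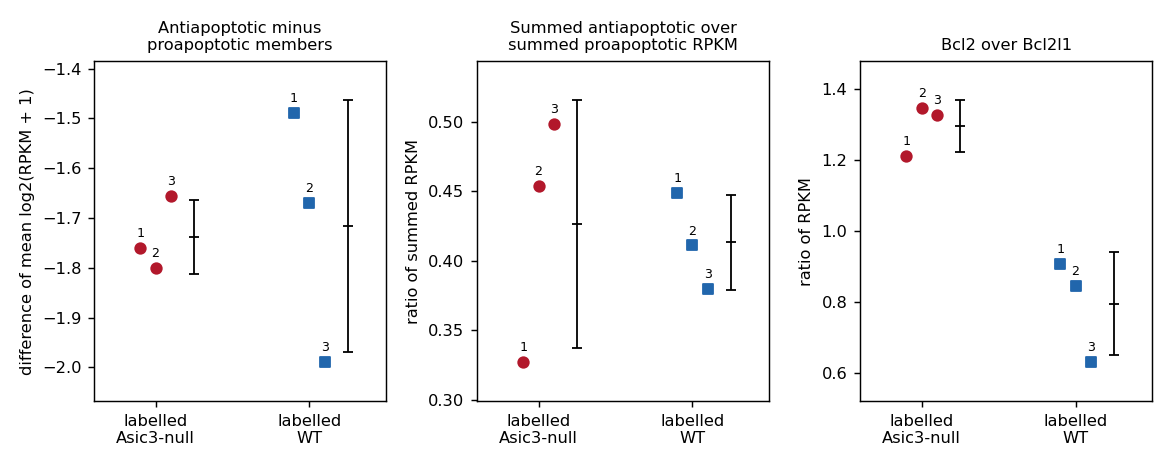
The panels give 3 measures in each library labelled Asic3-null (circles) and WT (squares), numbered by replicate, with the group mean and SD beside them: mean log2(RPKM + 1) of antiapoptotic minus proapoptotic members, the ratio of their summed RPKM, and the ratio of Bcl2 to Bcl2l1. The first 2 measures overlap between the labels, and the third lies at 1.21 to 1.35 against 0.630 to 0.907.

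Beyond the 10 members, 20 further genes of the family were listed and 12 were tested. Bmf alone was called. BMF is a BH3-only protein that is tethered to the cytoskeleton and released upon loss of attachment and other stress. Bmf (chromosome 2) had 4.66, 2.54 and 4.14 RPKM in K1, K3 and K5, from 50, 28 and 45 reads, and 15.2, 13.9 and 9.66 RPKM in W6, W7 and W9, from 148, 125 and 106 reads. The highest library labelled Asic3-null had less than the lowest labelled WT. Bmf fell by 1.55 on the log2 scale (standard error 0.25, 95% interval −2.12 to −0.98, adjusted p = 0.0125 from limma), and by exact permutation the two-sided p was the lowest possible, 0.10. It was called in 12 of 14 alternatives, the adjusted p from limma being 0.0588 without W6 and 0.0532 without W7. In every one of the 14 the estimate was negative. One call among 12 is read against the 3.35% of all genes called, and the neutrophil granule sum was lower in the same 3 libraries by the values given above. Its part in the value of Bmf was not tested.

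None of the other 11 was called. Moap1, a partner of BAX, had 4.52, 4.62 and 5.03 RPKM in K1, K3 and K5 and 2.30, 2.89 and 3.06 RPKM in W6, W7 and W9, without overlap. The estimate was 0.61 on the log2 scale (standard error 0.21, adjusted p = 0.201 from limma). Gm20604, at 5.49 RPKM, covers 3832 bases of the span of Moap1, and whether reads of these genes were told apart was not tested. Bad, a BH3-only protein switched off by phosphorylation, had a log2 fold change of 0.09, and Bik one of 0.10. Bcl2l2, for the survival protein BCL-W, had a value of 0.03 at 11.0 ± 1.7 against 10.8 ± 2.3 RPKM (SD, n = 3 each). Among the atypical members, the mitophagy receptors Bnip3 and Bnip3l had log2 fold changes of −0.46 and −0.25, Bcl2l12 0.13, Bcl2l13 0.14, Bcl2l14 −0.24, Bnip1 0.17 and Bnip2 −0.0031. Of these, adjusted p values from limma ran from 0.483 to 0.995, Moap1 left out. The median log2 fold change of the 12 was 0.06. Bcl2l10, Bcl2a1c and Hrk had no read in any library.

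**Figure D4:**
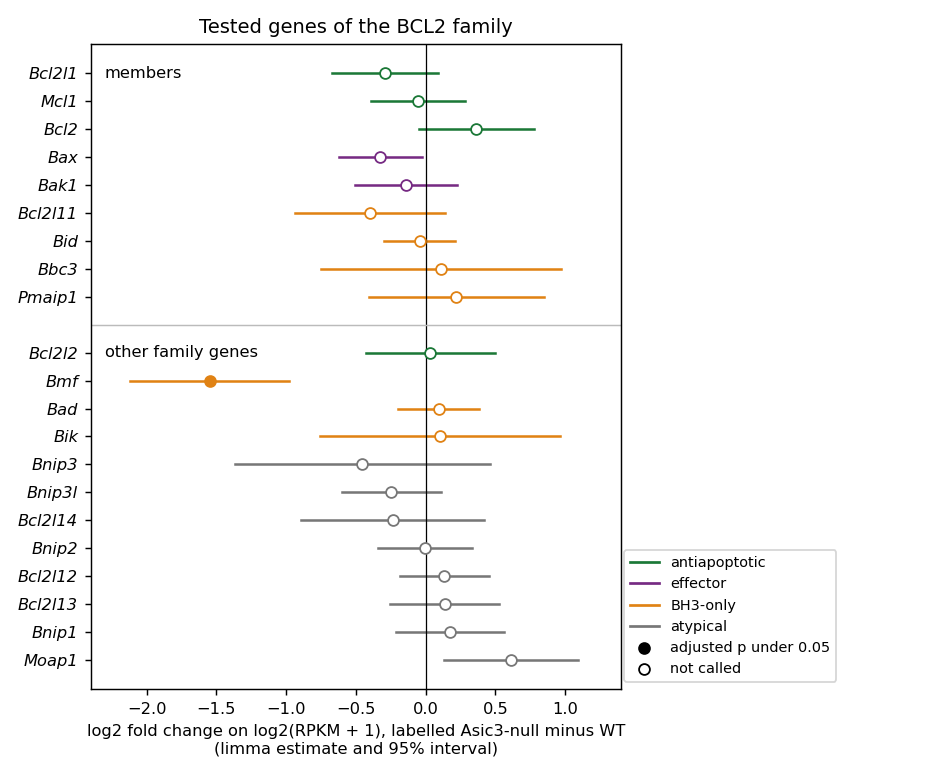
Log2 fold change on log2(RPKM + 1), libraries labelled Asic3-null minus those labelled WT, with 95% intervals from limma, for the 9 tested members and 12 other tested genes of the family, coloured by role. Bmf, filled, is the gene called, at −1.55, and the intervals of Bax and Moap1 also leave out 0 without an adjusted p under 0.05.

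The genes that act around the family were read from 3 lists. Downstream, 24 genes of the mitochondrial pathway were tested (channels of the outer membrane, cytochrome c and other released proteins, the apoptosome, caspases, inhibitors of apoptosis and nucleases). None was called by limma or limma-voom, 4 of the 24 had an unadjusted p under 0.05 against 15.9% of all tested genes, and the median log2 fold change was −0.09. The 3 with the lowest p were Birc3, Naip6 and Dffb. Birc3, which encodes the inhibitor of apoptosis cIAP2, had −0.70 (adjusted p = 0.144 from limma). Naip6 had −0.76 (adjusted p = 0.238 from limma), and how far its reads can be told from those of the other Naip genes was not tested. Dffb, for the nuclease that cuts DNA between nucleosomes, had 0.37 (adjusted p = 0.290 from limma). Dffa, which encodes the inhibitor of that nuclease and was named after its values were seen, had 0.43 (adjusted p = 0.294 from limma).

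On the death receptor side, 11 genes were tested and 1 was called, which is read against the 3.35% of all genes called. Tnfrsf1b, which encodes TNF receptor 2, had 16.1, 10.3 and 11.5 RPKM in K1, K3 and K5 and 33.2, 29.1 and 22.8 RPKM in W6, W7 and W9. It fell by 1.11 on the log2 scale (standard error 0.21, adjusted p = 0.0239 from limma), was negative in all 14 alternatives and was called in 9 of them. TNF receptor 2 has no death domain and is known from activated and maturing leukocytes, and the myeloid marker sums were lower in the same libraries, a link that was not tested. Tnf had a log2 fold change of −1.20 (limma, adjusted p = 0.283) with overlap between the groups, and Tnfrsf21 one of −0.49 (adjusted p = 0.317). The median of the 11 was −0.26.

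Upstream, 31 regulators of the family were tested, none was called by limma, 2 of the 31 had an unadjusted p under 0.05 (again against 15.9%) and the median log2 fold change was 0.03. Pim1, a kinase that phosphorylates BAD, had the lowest p, with 59.5 ± 11.1 against 117 ± 38.6 RPKM (SD, n = 3 each), no overlap and a log2 fold change of −0.92 (limma, adjusted p = 0.111). It was called without W7 and with limma-voom on the recovered reads. Wsb2, a ubiquitin ligase adaptor, had −0.58 (adjusted p = 0.190 from limma) and Ywhae, for a 14-3-3 protein, 0.27 (adjusted p = 0.329). Trp53, the regulator of Bbc3, Pmaip1 and Bax, was named after its values were seen and had a log2 fold change of −0.15 (limma, adjusted p = 0.798) at 33.2 ± 8.7 against 37.0 ± 9.0 RPKM (SD, n = 3 each).

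**Figure D5:**
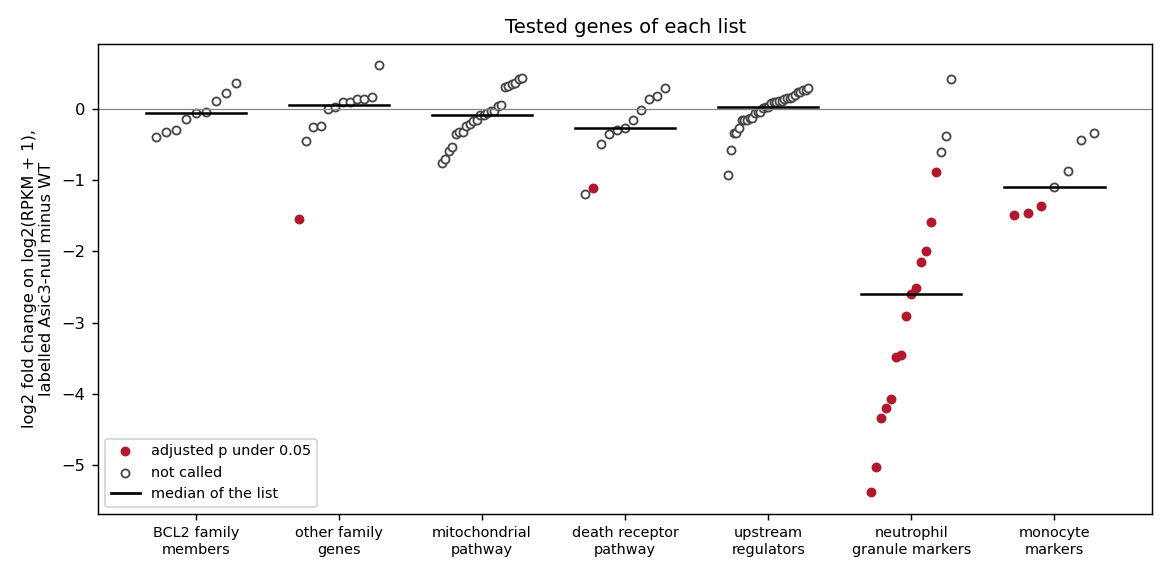
Log2 fold change on log2(RPKM + 1), libraries labelled Asic3-null minus those labelled WT, of every tested gene of 7 lists, filled where the adjusted p from limma was under 0.05, with a line at each list's median. The 5 lists on cell death have medians between −0.26 and 0.06 and 2 filled points, while 14 of 17 neutrophil granule genes and 3 of 7 monocyte genes are filled and lower.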

How the data were processed

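Per the labels and the methods of the study, total RNA of sorted LICs was made into libraries with the TruSeq RNA v2 kit, which does not mark strand. The submitters' processing notes name CASAVA 1.8.2, TopHat2 2.0.12 and GRCm38. The counting tool is not given in the sources used here. The authors deposited RPKM values per Entrez gene for 6 libraries. Symbols came from RefSeq for GRCm38.p6 (25275 of 27179). Each of the 16825 genes above 0 gave whole reads within 0.0001 reads (median 83.3 reads per library over tested genes, 1 read in 2 kb being 0.21 to 0.257 RPKM). Intervals on reads cover counting error only.

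Log2(RPKM + 1) was fitted with limma 3.58.1 in R 4.3.3 (moderation with an intensity trend, no covariate beside the genotype label, mean RPKM of at least 1, Benjamini-Hochberg over 12037 genes, threshold 0.05). Permutation tests were exact and two-sided (Python 3.11.15). Members, lists and alternatives were chosen with earlier results of these data known. Named are the members, the tested family genes, the called genes and the 3 lowest p of each pathway list, Asic3 and marker sums. Exceptions are stated. One listed symbol, Hbb-bt, was not found by name.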

Additional observations from a re-analysis of the deposited data

How the results depend on the processing

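No member was called under any of the 14 alternatives. Of 125 values of the members under them, 119 kept the sign and side of the threshold and 6 changed sign, each with 1 library left out, and none of these passed the test: Mcl1 ran from −0.17 to 0.10, Bak1 from −0.23 to 0.012, Bbc3 from −0.21 to 0.59 (−0.06 without K3, −0.21 without K5 and −0.07 without W6) and Pmaip1 from −0.12 to 0.39 on the log2 scale. With libraries left out in turn, the count of called family genes beyond the members, 1 in the report, ran from 0 to 1 (0 without W6 or W7), that of death receptor genes from 0 to 1 (0 without K3, K5, W6 or W7), that of upstream regulators from 0 to 1, and that of all genes from 203 to 293 against 403, where fewer libraries entered the fit. Without the filter the death receptor count was 0, and with limma-voom the upstream count was 1, which is Pim1. The difference in balance, −0.02 in the report, moved by less than its spread of 0.19 in the 11 alternatives run for it but had no stable sign: it was above 0 in 5 of them, ran from −0.16 (without W9) to 0.09 (without W6) with libraries left out, and was 0.03 from summed RPKM and 0.10 without Bcl2a1b, a gene of 9 reads.

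Libraries with the same number had correlations of their deviations of 0.06, −0.06 and −0.12, and those with different numbers −0.07 to 0.14. Deviations from means of 3 libraries cannot decide whether the numbers mark pairs, and the main fit was unpaired. With the replicate block 246 genes were called, and the call of no member, of Bmf or of Tnfrsf1b changed. At 17 reads in all, the depth limits what can be said of the 3 Bcl2a1 genes together, and for Bbc3 and Pmaip1 the spread between libraries does.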
